A study of Homo sapiens with 2 samples.

Results

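The genes described here are the cytosolic translation elongation factors and other abundant translation-related genes outside the ribosomal proteins and the initiation factors. They are EEF1A1, EEF1A2, EEF1B2, EEF1D, EEF1G, EEF2, TPT1, PABPC1, NACA and BTF3. They were chosen by symbol in GENCODE release 44, matched to the Ensembl identifiers of the 2 count tables, and all 10 were found among the 58735 genes listed. The RNA came from MCF10a-Snail-ER cells, a derivative of the non-tumorigenic human mammary epithelial line MCF10a that stably carries the epithelial repressor Snail (gene SNAI1) fused to the estrogen receptor, so that tamoxifen can activate the fusion. Both libraries were made from polyadenylated RNA of such cells after 1 day in 100 nM tamoxifen, a treatment meant to set off the epithelial-to-mesenchymal transition, and the series describes the samples as matched. The Nanopore library was read with the direct RNA kit on the MinION, in which native RNA strands pass through a pore. The Illumina library was made with the TruSeq stranded mRNA kit, in which RNA is fragmented and copied into amplified cDNA. Each platform is represented by 1 library, and untreated cells were not analysed here. The comparison is therefore between these libraries and not between treatments, and counting error is the only error that the intervals and tests include. The levels are averages over all cells, so fewer expressing cells and less RNA per cell cannot be told apart.

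During elongation, eEF1A brings aminoacyl-tRNA to the ribosome as a complex with GTP, eEF1B reloads eEF1A with GTP, and eEF2 moves the ribosome along the message. Many of these messages are TOP mRNAs: they open with a C followed by an uninterrupted run of pyrimidines, the 5′ terminal oligopyrimidine tract, through which mTOR signalling and the RNA-binding protein LARP1 control their translation together with that of the ribosomal proteins. In dividing epithelial cells they rank among the most abundant cytosolic messages.

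The start sites are shown first because the tract is the feature that defines a TOP mRNA. For 7 of the 10 genes, a RefSeq promoter entry (GRCh38.p14) beginning at the first base of the GENCODE canonical transcript was used. EEF1A2, EEF1D and PABPC1 were left out, which does not show that the promoter table lacks their starts. Whether they carry the tract was not tested. Each window runs 5′ to 3′ on the gene's strand from 10 bases before the first transcribed base to 20 bases of transcript. Capitals mark a C at the first transcribed base followed by at least 4 pyrimidines (C or T), searched on the gene's own strand only.
EEF1A1, chr6:73521013-73521042, minus strand: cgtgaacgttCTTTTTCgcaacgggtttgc
EEF2, chr19:3985444-3985473, minus strand: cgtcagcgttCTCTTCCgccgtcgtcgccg
TPT1, chr13:45341164-45341193, minus strand: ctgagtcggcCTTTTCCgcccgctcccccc
EEF1B2, chr2:206159885-206159914, plus strand: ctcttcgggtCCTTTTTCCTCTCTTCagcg
NACA, chr12:56725280-56725309, minus strand: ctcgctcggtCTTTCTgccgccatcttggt
BTF3, chr5:73498432-73498461, plus strand: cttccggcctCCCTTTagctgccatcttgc
EEF1G, chr11:62573872-62573901, minus strand: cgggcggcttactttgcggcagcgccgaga
A tract of 6 to 16 bases stood at the first transcribed base in 6 of these 7 genes, against 4.07% of the 35116 entries of the table. EEF1G had an A at that base. The genes were grouped as elongation and TOP mRNAs, so tracts among them follow from that choice. The 4.07% is over all entries, not restricted to canonical starts or by chromosome, so no enrichment is read from it. A match describes these letters at an annotated start; neither library measured which start was used.

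Together the 10 genes held 7781 of the 403235 Nanopore counts, or 1.93% (95% Wilson interval 1.89 to 1.97%), and 4137136 of the 191741714 Illumina counts, or 2.16% (2.16 to 2.16%). EEF1A1 alone accounted for 48.0% of those Nanopore counts and 48.6% of those Illumina counts. Levels are given as counts per 1000000 counts of the library (CPM) with exact 95% intervals. A single count stood for 2.48 CPM by Nanopore and 0.00522 CPM by Illumina, so the Nanopore counts set the precision of every comparison. The keratins of basal mammary epithelium were present in both libraries: KRT5 was at 1686 CPM by Nanopore and 1447 CPM by Illumina, and KRT14 at 799 and 611 CPM. The blood markers were near absent, with PTPRC at 0 and 2 counts and HBB at 0 in both. The epithelial genes CDH1, EPCAM and TP63 had 3 to 5 Nanopore counts each and at most 33.2 CPM by Illumina. Of the other markers, PECAM1 had no Nanopore count and was at 5.07 CPM by Illumina, and the fibroblast genes lay between 0.141 CPM (PDGFRB) and 26.5 CPM (DCN) by Illumina.

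**Figure D1:**
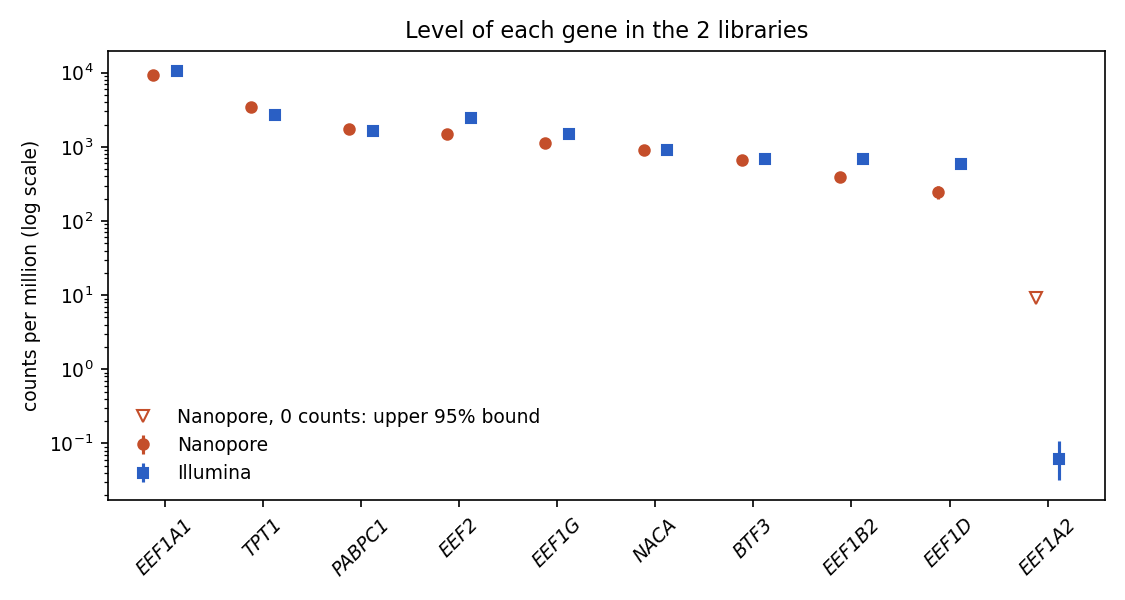
Level of each gene in CPM (log axis) in the Nanopore library (circles) and the Illumina library (squares), ordered by Nanopore level, with exact 95% intervals that cover counting error. EEF1A1 was highest in both libraries, 9 genes lay at 246 CPM or above in both, and EEF1A2 had no Nanopore count (open triangle, upper bound 9.15 CPM).

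EEF1A1 (ENSG00000156508, chromosome 6, 73489308 to 73525587, minus strand, hg38) encodes the eEF1A form of most tissues. It had 3734 Nanopore counts, 9260 CPM (8967 to 9561), and 2009473 Illumina counts, 10480.1 CPM (10466 to 10495). Its rank among all genes was 5 by Nanopore and 1 by Illumina. Illumina was thus slightly higher and the intervals did not overlap. Throughout, the libraries are compared by a log2 ratio, Nanopore over Illumina, after adding 1 CPM to each level, and the exact 95% interval beside it is that of the plain CPM ratio. For EEF1A1 the ratio was −0.18 (−0.23 to −0.13), with an exact binomial adjusted p (Benjamini-Hochberg) of 1.3e-13. When counts were scaled by the median ratio of genes, the value was −0.051 with an exact binomial adjusted p of 0.0656, so the call was lost.

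EEF1A2 (ENSG00000101210, chromosome 20, 63488013 to 63499239) encodes the paralog typical of muscle and neurons. It had no Nanopore count, which allows up to 9.15 CPM (exact 95% limit), and 12 Illumina counts, 0.0626 CPM (0.0323 to 0.109). Its Illumina level lay far below what the Nanopore depth could show, and it was too low to be tested. Per exonic base, EEF1A1 was at 80308 times the Illumina level of EEF1A2 (45975 to 155421 from the counting interval of EEF1A2). EEF1A1 therefore stood for nearly all of the eEF1A message listed in both tables. The coding sequences of the paralogs differed at 303 of 1392 aligned positions, with 3 more in gaps, and shared no 50-base word.

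The eEF1B subunits were all lower by Nanopore than by Illumina. EEF1B2 (ENSG00000114942, chromosome 2, 206159585 to 206162928), a nucleotide exchange subunit, had 159 Nanopore counts, 394 CPM (335 to 461), and 130579 Illumina counts, 681 CPM (677 to 685). EEF1D (ENSG00000104529, chromosome 8, 143579697 to 143599541), the other exchange subunit, had 99 Nanopore counts, 246 CPM (199.5 to 299), and 111102 Illumina counts, 579 CPM (576 to 583). EEF1G (ENSG00000254772, chromosome 11, 62559596 to 62574086), the structural subunit, had 459 Nanopore counts, 1138 CPM (1037 to 1247), and 284809 Illumina counts, 1485 CPM (1480 to 1491). In none of the 3 did the intervals of the libraries overlap. The log2 ratio was −0.79 (−1.02 to −0.56) for EEF1B2, −1.24 (−1.54 to −0.95) for EEF1D and −0.38 (−0.52 to −0.25) for EEF1G. In the same order the Benjamini-Hochberg adjusted p of the exact binomial test was 4.95e-13, 6.28e-22 and 2.03e-08. EEF1D had the lowest ratio of the 9 tested genes, its Illumina level being 2.35 times its Nanopore level.

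EEF2 (ENSG00000167658, chromosome 19, 3976056 to 3985463, minus strand), the translocation factor, had 603 Nanopore counts, 1495 CPM (1378 to 1620), and 464265 Illumina counts, 2421 CPM (2414 to 2428). It too was lower by Nanopore: the log2 ratio came to −0.69 (−0.81 to −0.58), at an exact binomial adjusted p (Benjamini-Hochberg) of 2.65e-36.

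TPT1 (ENSG00000133112, chromosome 13, 45333471 to 45341284, minus strand) encodes the translationally controlled tumor protein, a small abundant protein whose message is a classical TOP mRNA. It had 1391 Nanopore counts, 3450 CPM (3271 to 3635), and 512527 Illumina counts, 2673 CPM (2666 to 2680). Its rank among all genes was 17 by Nanopore and 27 by Illumina. TPT1 was the single gene of the 10 called higher by Nanopore, with a log2 ratio of 0.37 (0.29 to 0.44) and an exact binomial adjusted p (Benjamini-Hochberg) of 1.12e-18.

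PABPC1, NACA and BTF3 stood close to equal in the libraries. PABPC1 (ENSG00000070756, chromosome 8, 100685816 to 100722809), the main cytoplasmic poly(A)-binding protein, had 697 Nanopore counts, 1729 CPM (1603 to 1862), and 317737 Illumina counts, 1657 CPM (1651 to 1663). NACA (ENSG00000196531, chromosome 12, 56712305 to 56731628) and BTF3 (ENSG00000145741, chromosome 5, 73498408 to 73505667) encode the alpha and beta subunits of the nascent polypeptide-associated complex, which binds new chains as they leave the ribosome. NACA had 369 Nanopore counts, 915 CPM (824 to 1013), and 176490 Illumina counts, 920 CPM (916 to 925). BTF3 had 270 Nanopore counts, 669.6 CPM (592 to 754), and 130142 Illumina counts, 679 CPM (675 to 682). Within each of these 3 genes the intervals of the libraries overlapped. The log2 ratios were 0.061 (−0.048 to 0.17), −0.0084 (−0.16 to 0.14) and −0.020 (−0.20 to 0.15), with exact binomial adjusted p-values of 0.391, 1 and 0.94. The intervals leave differences of up to 0.20 on the log2 scale undetectable at this depth. For PABPC1 the call depended on the scaling: with TMM or median-ratio scaling the ratio was 0.15 or 0.19, with exact binomial adjusted p-values of 0.0196 and 0.00264. NACA and BTF3 changed sign under both scalings and passed the test under neither.

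**Figure D2:**
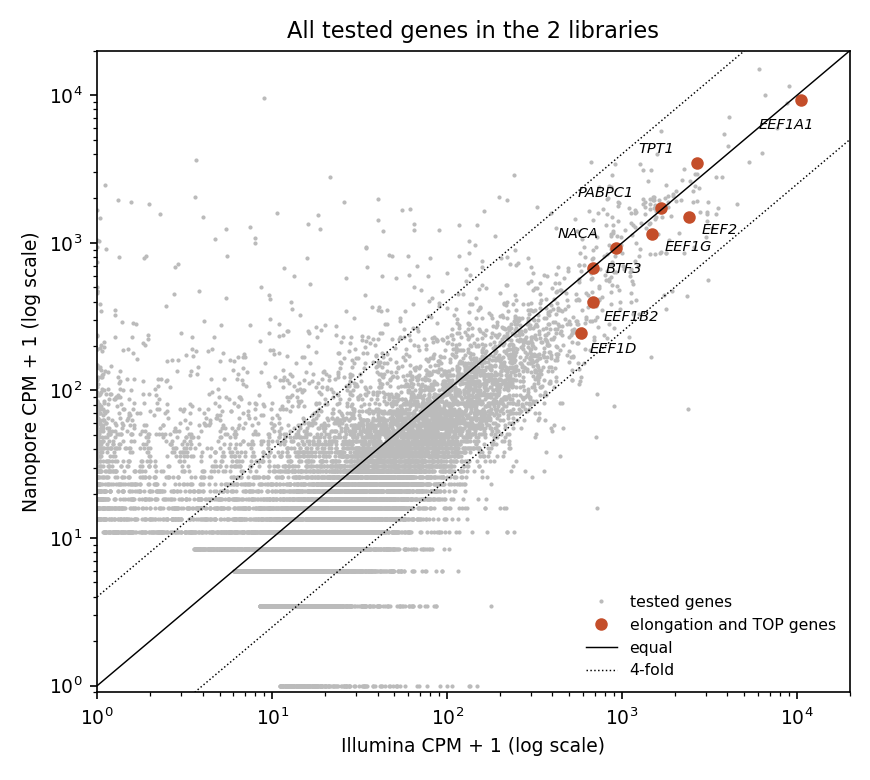
Nanopore CPM plus 1 against Illumina CPM plus 1 (both log axes) for the 12414 tested genes (grey) and the 9 tested elongation and TOP genes (colored), with lines of equal level and of 4-fold difference. The 9 genes lie in the upper right, along the line of equal level and inside both 4-fold lines.

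A mean level of 5 CPM was required for testing, which 9 of the 10 genes reached. Of these, 1 was higher by Nanopore at an adjusted p-value under 0.05, against 20.2% of the 12414 genes tested, and 5 were higher by Illumina, against 27.2%. None was both called and 4-fold higher by Nanopore (12.9% of tested genes) or by Illumina (7.31%). Calls are easier to make for abundant genes. Among the 326 tested genes with at least the mean level of EEF1D, 412 CPM, the share called was 50.3% higher by Nanopore and 38.7% higher by Illumina, and the share with 4-fold calls was 17.2% and 2.45%. Their median log2 ratio was −0.18, against −0.42 for all tested genes and 0.15 for the 326 abundant ones. Of the 9, 8 lay within 2-fold, against 50.5% of all tested genes and 59.5% of the abundant ones. This holds for CPM without division by length. With Illumina levels divided by union exonic length, as described below, EEF1A1, EEF1B2, TPT1, PABPC1, NACA and BTF3 lay outside 2-fold. Only EEF1D, EEF1G and EEF2 then lay within it, and the share over all tested genes was not computed. The genes with the most similar pair of levels, by distance in the plane of both log2(CPM + 1) values over the 2 libraries, were MT-CO2 (distance 0.26), MT-CO1 (0.38) and MT-CO3 (0.69) for EEF1A1. They were TUBA1B (0.23), TIMP1 (0.34) and ANXA2 (0.34) for EEF2, and RPL13A (0.24), RPLP0 (0.24) and MT-ND1 (0.27) for TPT1.

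Illumina counts grow with the length of a message, because a fragmented message gives several fragments, while a direct RNA read counts a strand once. Illumina levels were therefore also divided by length and rescaled to 1000000 (TPM), with 3 lengths from GENCODE. These were the union of all exons, the canonical transcript and the mean over transcripts. For several of the genes the lengths disagree widely. NACA has 26 annotated transcripts, a union of 11267 bases, a canonical transcript of 6387 bases, which was the longest of its 17 coding transcripts, and a mean of 1254 bases; its coding transcripts have a median of 964 bases. For TPT1 the lengths were 7183, 4548 and 1429 bases, and its coding transcripts have a median of 948 bases. For EEF1G they were 2639, 1446 and 1269 bases, and its TPM moved least with the length, the highest being 1.13 times the lowest, against 4.34 times for EEF1D.

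The sign of the ratio followed the length chosen in several genes. For EEF1A1 the log2 ratio of Nanopore CPM to Illumina TPM was 1.71 with union length, 1.00 with canonical length and 0.72 with mean length, against −0.18 without length. For EEF2 it was −0.13, 0.33 and −1.18, and with union length the call was lost (exact binomial adjusted p, Benjamini-Hochberg, 0.0692). For NACA it was 2.04, 2.03 and 0.054. For EEF1D it was 0.55, −0.80 and −1.56, and for BTF3 1.02, −0.30 and −0.059. In 3 genes the direction and the call were kept in all 12 alternatives tried, though those of pseudocount and filter could not change a direction. TPT1 was higher by Nanopore in each, with a log2 ratio of 0.37 to 1.92, EEF1B2 was lower in each, from −1.73 to −0.66, and EEF1G was lower in each, from −0.48 to −0.26. The median of all tested genes also moved with length, from −0.42 to 0.40, 0.49 and 0.065.

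**Figure D3:**
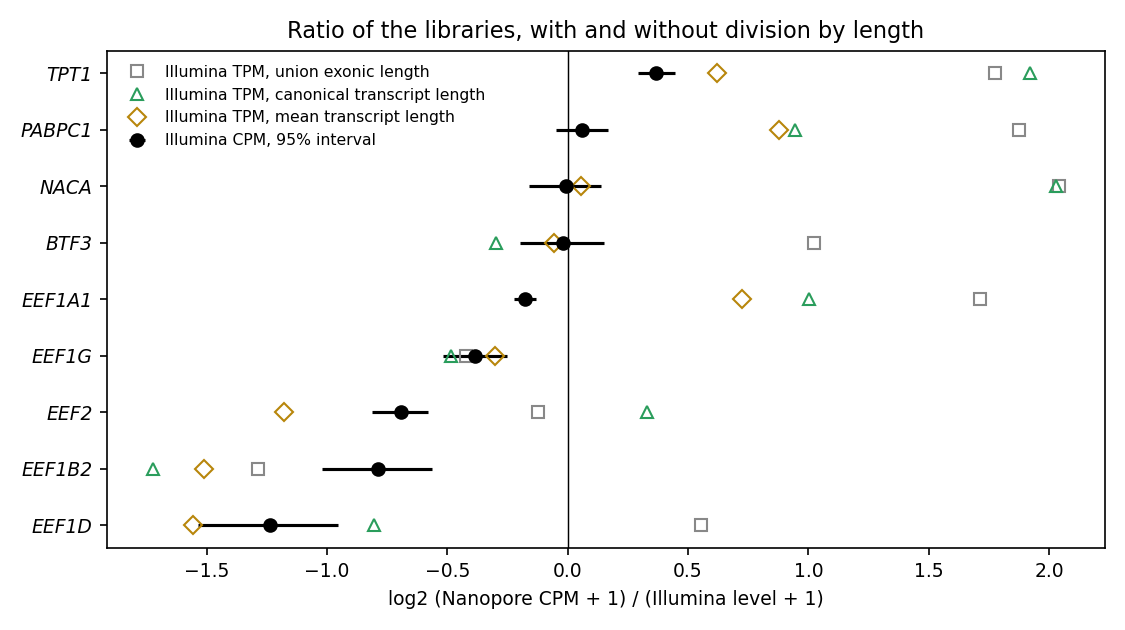
Log2 ratio of Nanopore CPM plus 1 to the Illumina level plus 1 for the 9 tested genes, with Illumina CPM (filled circles, 95% interval of the plain ratio) and Illumina TPM by union exonic, canonical transcript or mean transcript length (open symbols). TPT1 and PABPC1 lie right of 0 for every measure and EEF1B2 and EEF1G left of 0, whereas EEF1A1, EEF2, EEF1D, NACA and BTF3 have symbols on both sides.

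Per molecule, the order by Nanopore was EEF1A1, TPT1, PABPC1, EEF2, EEF1G, NACA, BTF3, EEF1B2, EEF1D and EEF1A2. Intervals of neighbors in this order overlapped only for PABPC1 and EEF2. By Illumina TPM with union length the order was EEF1A1, EEF2, EEF1G, TPT1, EEF1B2, PABPC1, BTF3, NACA, EEF1D and EEF1A2, and 4 of the 10 genes held the same rank in both libraries. EEF1A1 was first and EEF1A2 last with each length.

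Levels within complexes were set side by side as ratios. By Nanopore, EEF1B2 stood at 0.346 of EEF1G (0.287 to 0.416) and EEF1D at 0.216 (0.172 to 0.269), so the counts listed for the eEF1B subunits were unequal. These intervals cover counting error only. Transcripts of the genes that overlap EEF1D and EEF1G, described below, cannot be told apart from theirs. By Illumina TPM with union length the ratios were 0.632 and 0.110, and with canonical length 0.820 and 0.270. EEF1G was the highest of the 3 with each length in both libraries. NACA was at 1.37 times BTF3 by Nanopore (1.16 to 1.60), at 0.672 by Illumina TPM with union length, 0.271 with canonical length and 1.26 with mean length. EEF1A1 was at 6.19 times EEF2 by Nanopore (5.68 to 6.76) and at 1.73, 3.89 and 1.66 times by Illumina TPM with union, canonical and mean length.

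Several genes annotated over these loci had nearly as many Nanopore counts as the elongation or TOP gene they overlap, though not over EEF1A1, EEF1B2 or EEF2. A gene whose body shares a base with a member was annotated for 8 of the 10 genes, 18 genes in all, and EEF1A2 and BTF3 had none. ENSG00000273149, a lncRNA gene on the strand opposite TPT1 (chromosome 13, 45340039 to 45341183) whose 588 exonic bases all lie within exonic positions of TPT1, had 1163 Nanopore and 45798 Illumina counts. These are 83.6% of the TPT1 count by Nanopore and 8.94% by Illumina, and its log2 ratio was 3.59. Across the 3′ part of EEF1D, the opposite-strand lncRNA gene ENSG00000254741 (chromosome 8, 143579636 to 143580670) had 95 Nanopore and 4277 Illumina counts, or 96.0% and 3.85% of the EEF1D counts. ENSG00000279605, a gene model of type TEC on the same opposite strand there, had 96 and 49385 counts, or 97.0% and 44.5%. By Nanopore both genes thus had nearly the count of EEF1D, and by Illumina neither did.

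On the same strand, MIR7705 (chromosome 8, 100702968 to 100703024), a microRNA gene of 57 bases inside an exon of PABPC1, had 672 Nanopore counts, 96.4% of the PABPC1 count, and no Illumina count. The exact 95% interval of its log2 ratio started at 16.40. ENSG00000285625, a protein-coding gene model that overlaps NACA (chromosome 12, 56714612 to 56741535), had 291 Nanopore and 43930 Illumina counts, 78.9% and 24.9% of the NACA counts. Over EEF1G the libraries were alike: ENSG00000255508, a protein-coding model that extends past EEF1G (chromosome 11, 62559603 to 62591531), had 466 and 287698 counts, 102% and 101% of the EEF1G counts. How reads over several genes were counted is not given in the sources used here, and transcripts of an overlapping gene and of its partner cannot be told apart in these tables.

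**Figure D4:**
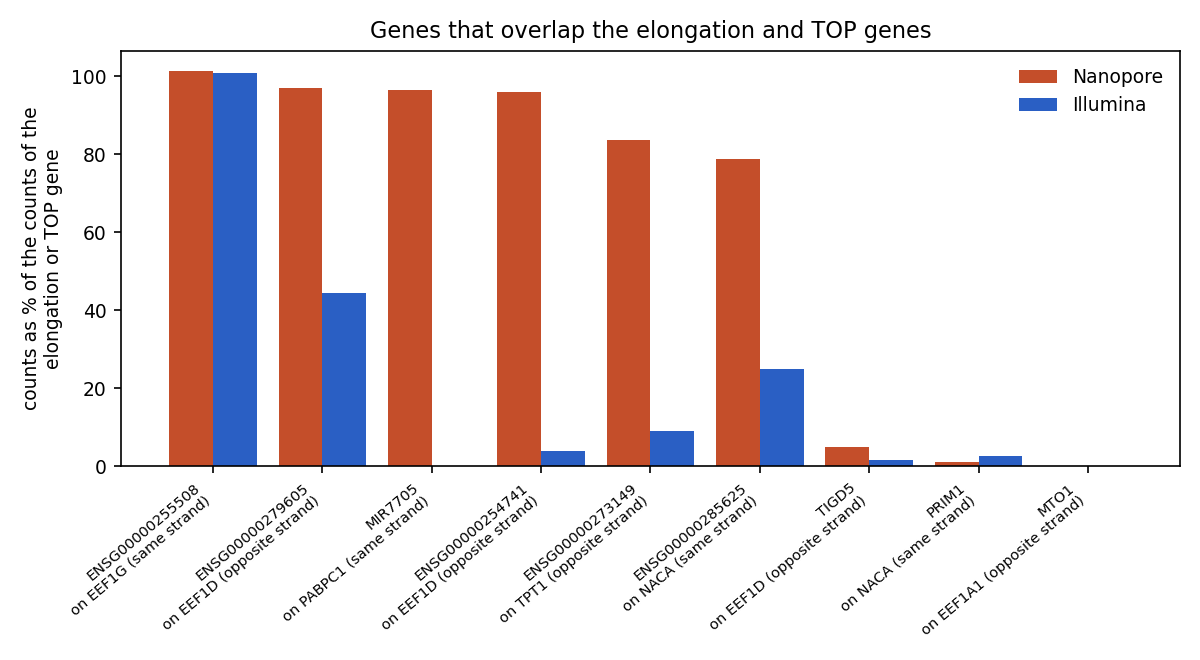
Counts of 9 genes that overlap an elongation or TOP gene, as a percent of that gene's own count, by Nanopore (left bars) and Illumina (right bars). By Nanopore 6 of the 9 lie between 78.9% and 102%, and by Illumina only ENSG00000255508 does.

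The remaining overlaps were small. TIGD5, opposite EEF1D, had 5 Nanopore and 1809 Illumina counts, PRIM1, beside NACA, had 4 and 4840, and MTO1, opposite EEF1A1, had 6 and 4046. EEF1B2, EEF2 and TPT1 host 6 annotated snoRNA genes in all. These had at most 5 Nanopore counts (SNORA31, inside TPT1) and at most 66 Illumina counts (SNORA31 again).

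Processed pseudogenes are copies of spliced messages set back into the genome, and they share long stretches with these genes. GENCODE names 125 pseudogenes of the 10 genes, 49 of them for EEF1A1. Nanopore listed 153 counts on 6 of them and Illumina 262332 counts on 58. As a share of gene plus pseudogenes, this was 1.93% by Nanopore (Wilson interval 1.65 to 2.26%) and 5.96% by Illumina (5.94 to 5.98%). For EEF1A1 the share was 3.64% by Nanopore (3.09 to 4.28%) and 10.8% by Illumina (10.7 to 10.8%), with no overlap of the intervals. For EEF1B2 it was 5.36% (2.84 to 9.87%) and 9.33% (9.18 to 9.48%), so no difference in the summed share was detectable at the Nanopore depth. The 2 EEF1B2 copies with Nanopore counts went opposite ways on few counts. EEF1B2P3 had a log2 ratio of −2.36 on 5 Nanopore counts, and EEF1B2P6 one of 1.97 on 4. For the other 6 genes with pseudogenes the share was at most 1.98% by Nanopore and 2.28% by Illumina. EEF2 and EEF1A2 have none under their symbols.

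**Figure D5:**
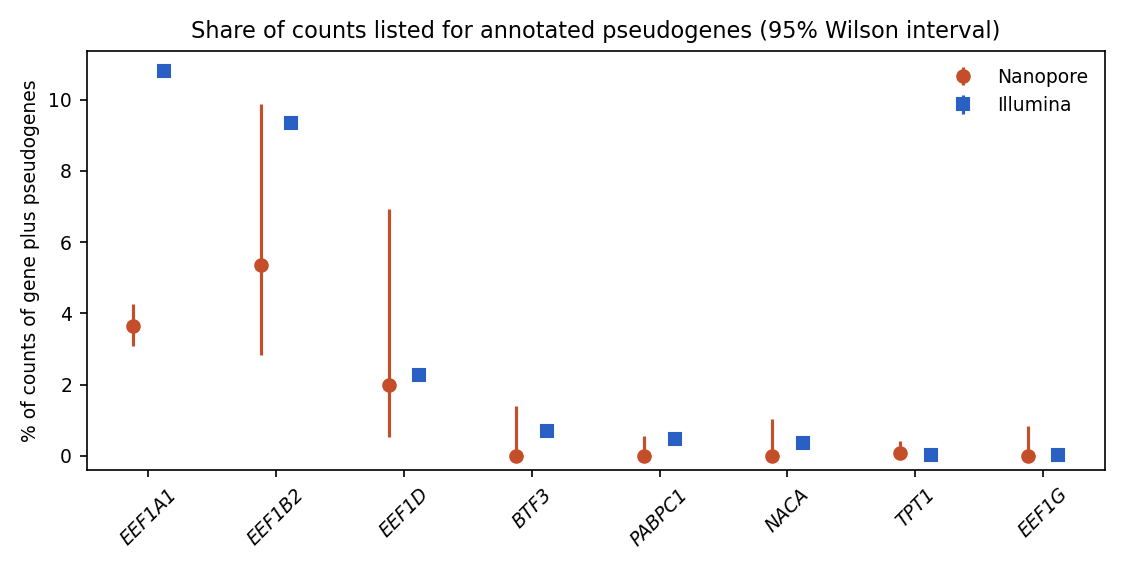
Share of the counts of a gene plus its annotated pseudogenes that is listed for the pseudogenes, by Nanopore (circles) and Illumina (squares), with 95% Wilson intervals, for the 8 genes that have any. EEF1A1 stands at 3.64% and 10.8%, and the Nanopore intervals of the other genes include the Illumina value.

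Most of this was EEF1A1P5 (ENSG00000196205, chromosome 9, 133019486 to 133020874, plus strand), which overlaps no other listed gene. It had 132 Nanopore counts, 3.54% of the EEF1A1 count, and 222527 Illumina counts, 11.1%. On the log2 scale its ratio came to −1.82 (exact binomial adjusted p, Benjamini-Hochberg, 2.55e-73). Its 1389 bases align to the coding sequence of EEF1A1 with 4 differences, and 85.1% of its 50-base words and 51.6% of its 150-base words occur in EEF1A1 transcripts. All 4 differences are shown because they are the only bases that can assign a read inside this stretch to either copy. The windows are from GENCODE transcripts, capitals mark the base that differs, and positions count from the A of the EEF1A1 start codon, with the base of EEF1A1 first.
EEF1A1, T294C: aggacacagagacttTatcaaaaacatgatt
EEF1A1P5, T294C: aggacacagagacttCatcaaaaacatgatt
EEF1A1, T720C: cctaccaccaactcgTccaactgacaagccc
EEF1A1P5, T720C: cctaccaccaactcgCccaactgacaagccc
EEF1A1, T933G: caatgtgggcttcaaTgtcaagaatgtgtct
EEF1A1P5, T933G: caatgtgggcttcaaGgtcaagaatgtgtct
EEF1A1, C1094T: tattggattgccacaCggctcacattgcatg
EEF1A1P5, C1094T: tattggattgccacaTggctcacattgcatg
The longest stretch with no difference was 425 bases. The tables hold counts and no reads, so which bases the counted reads carried was not tested.

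The other copies show a range of distance from their parents. EEF1A1P6 (chromosome 7, 22510616 to 22511999) differs from EEF1A1 by 7 bases and a gap and had 9 Nanopore and 9912 Illumina counts. EEF1A1P13 (chromosome 5, 14651941 to 14653329) differs by 26 bases and had 0 and 8701 counts. EEF1B2P3 (chromosome X, 24788392 to 24789069) differs from EEF1B2 by 7 bases and had 5 and 13029 counts. A stretch of 60 coding bases, positions 77 to 136 of EEF1A1, sets the nearest copy, a more distant copy and the paralog side by side. It is the first gap-free stretch of that length in which EEF1A1P13 differs most, and capitals mark bases that differ from EEF1A1.
EEF1A1: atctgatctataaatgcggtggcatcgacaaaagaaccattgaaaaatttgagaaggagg
EEF1A1P5: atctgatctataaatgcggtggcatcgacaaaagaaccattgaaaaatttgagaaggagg
EEF1A1P13: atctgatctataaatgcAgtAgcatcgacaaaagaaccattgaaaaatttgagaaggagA
EEF1A2: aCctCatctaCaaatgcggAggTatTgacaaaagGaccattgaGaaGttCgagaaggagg
EEF1A1P5 was identical to EEF1A1 over these bases, EEF1A1P13 had 3 differences and EEF1A2 had 10.

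Other genes of the pathway were taken from 6 lists of 58 genes. Their calls and ratios use CPM without division by length, and the side of a gene can change with length, as above. Of 5 further genes often counted with the TOP mRNAs, 3 were called higher by Illumina and 0 by Nanopore, against 27.2% and 20.2% of all tested genes and 38.7% and 50.3% of the 326 abundant ones. NPM1, a nucleolar chaperone, was at 2800 CPM by Nanopore and 3428 CPM by Illumina. RACK1, a protein of the small ribosomal subunit, was at 2435 and 2593 CPM. HNRNPA1, a splicing factor, was at 1396 and 3068 CPM, a log2 ratio of −1.14 (−1.26 to −1.02). The median of this list was −0.24. By Illumina TPM with union length, NPM1 was at 1117, RACK1 at 1223 and HNRNPA1 at 1241, each below its Nanopore CPM. NAP1L1, the remaining gene called higher by Illumina, was then at 106, against 565 CPM by Nanopore. The median over all tested genes was 0.40 with that length. The C and pyrimidine tract stood at the first base in 3 of the 4 of these genes found in the promoter table, NAP1L1, RACK1 and NPM1, and not in VIM.

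Among 22 accessory factors of elongation and termination, 21 were tested. Calls were 5 higher by Illumina (27.2% of all tested genes) and 0 higher by Nanopore (20.2%), at a median log2 ratio of −0.63 against −0.42. ETF1, the release factor that reads stop codons, was at 159 CPM by Nanopore and 413 CPM by Illumina. GSPT1, its GTPase partner, was at 91.8 and 193 CPM, and ABCE1, the ribosome recycling factor, at 81.8 and 149 CPM. By Illumina TPM with union length, ETF1 was at 246, still above its Nanopore CPM. GSPT1 was then at 65.0 and ABCE1 at 64.3, both below theirs. EEF2K, the kinase that inactivates eEF2, had 1 Nanopore count and 31.0 CPM by Illumina, a log2 ratio of −3.20 (−8.95 to −1.17), and was the only gene of this list called at 4-fold. Of 5 genes listed with mitochondrial elongation, GFM2 was called higher by Nanopore, at 129 against 42.7 CPM (20.2% of all tested genes). TUFM and TSFM were called higher by Illumina (27.2%), and the median of the list was −0.40. TUFM, the mitochondrial counterpart of eEF1A, was at 211 and 282 CPM. GFM1, a mitochondrial counterpart of eEF2, was at 62.0 and 64.0 CPM.

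Of 9 paralogs of the genes above, 5 were tested, with 3 calls higher by Illumina, PABPC1L called higher by Nanopore and a median of −0.95. The shares over all tested genes were 27.2% and 20.2%, and their median −0.42. PABPC4 was at 99.2 CPM by Nanopore and 192 CPM by Illumina, PABPN1, the nuclear poly(A)-binding protein, at 44.6 and 205 CPM, and BTF3L4 at 42.2 and 43.6 CPM. PABPN1 and PABPC3 were called 4-fold higher by Illumina. PABPC3, a gene without introns whose coding sequence is 94.5% identical to PABPC1 in alignment, had 0 Nanopore and 2654 Illumina counts, and the exact 95% interval of its log2 ratio reached up to −0.60, so its 4-fold call rests on the added 1 CPM and smaller differences lie within the interval. Of 7 genes that bind poly(A)-binding protein or act with it on the tail, 6 were tested, 1 was higher by Nanopore (20.2% of all tested genes) and 2 by Illumina (27.2%), and their median ratio was −0.077. TOB1 was higher by Nanopore, at 62.0 against 26.5 CPM, while PAIP2 stood at 151 and 136 CPM and PAIP1 at 69.4 and 62.9 CPM. PAN2 and PAN3, subunits of a deadenylase, were called 4-fold higher by Illumina on 2 and 3 Nanopore counts, with log2 ratios of −2.03 (−5.28 to −0.38) and −2.04 (−4.45 to −0.63).

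Of 10 regulators of TOP mRNA translation, 6 were called higher by Illumina (27.2% of all tested genes) and 1 by Nanopore (20.2%), and the median was −1.19, against −0.42 over all tested genes. LARP1, which binds the cap and the tract of TOP mRNAs, had 22 Nanopore counts, 54.6 CPM, against 455 CPM by Illumina. The log2 ratio of LARP1 came to −3.04 (−3.74 to −2.46; exact binomial adjusted p, Benjamini-Hochberg, 8.52e-50), and it was the only gene of this list called at 4-fold. RHEB, the GTPase that activates mTOR, was the gene higher by Nanopore, at 109 against 62.6 CPM. MTOR itself was at 27.3 and 80.5 CPM, a log2 ratio of −1.53 (−2.56 to −0.72). By Illumina TPM with union length, LARP1 was at 101, RHEB at 48.0 and MTOR at 16.3. Among the 6 genes called higher by Illumina, only LARP1 then stood above its Nanopore CPM.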

How the data were processed

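The 2 libraries of MCF10a-Snail-ER cells, Nanopore direct RNA and Illumina, were told apart by their titles. Their tables, as the authors deposited them, hold raw whole counts for 58735 Ensembl identifiers. The submitters' processing notes name the build hg38, minimap2 2.11-r797, HISAT2 2.1.0 and featureCounts. Their roles and options, the annotation release, the treatment of reads over several genes or places, whether Illumina counts are reads or fragments, and whether Nanopore reads were corrected with short reads are not given in the sources used here. Each of these bears on genes with overlaps or copies. Totals were 403235 and 191741714 counts.

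Names, positions and lengths came from GENCODE release 44, which held 58207 of the identifiers. Where the mean over both libraries reached 5 CPM, a gene's counts were compared, given the totals, by an exact binomial test (two-sided, double the smaller tail), with Benjamini-Hochberg adjustment over all 12414 genes. The test was checked only on counts simulated with counting error alone, which the test itself assumes, so that check could not show effects of other variation. The test compares these 2 libraries and not the platforms in general. No dispersion model was fitted because each platform has 1 library. Library shares have Wilson intervals, and levels exact Clopper-Pearson intervals; amplified reads are not independent molecules, so these cover counting error only. Alternatives were TMM scaling (edgeR 4.0.16 in R 4.3.3), DESeq2 1.42.0 size factors (genes counted 10 times or more by each platform), TPM by 3 lengths, pseudocounts of 0.1 and 5 CPM, no filter or one at 20 CPM, summing of genes with their pseudogenes, and totals without mitochondrially encoded genes. Totals over genes that overlap no other gene were added after seeing the data. Sequence comparisons used global alignment, end gaps free, of GENCODE canonical transcripts.

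All 10 genes are described. The text also names overlapping genes with at least 10 Nanopore or 1000 Illumina counts, and for each list the 3 genes with the highest mean CPM and any called at 4-fold. The pseudogenes named are the 3 with most counts in each library, and the nearest genes are 3 each for EEF1A1, EEF2 and TPT1. EEF1A1P13, EEF1B2P6, NAP1L1, VIM, TSFM, PABPC1L and SNORA31 were named after their values were seen. The genes and lists were chosen with earlier results of these data known.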

Additional observations from a re-analysis of the deposited data

How the results depend on the processing

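The 9 single-gene ratios were recomputed under 12 alternatives. TPT1, EEF1B2 and EEF1G kept direction and call in each. Pseudocounts could change neither the direction nor the call at adjusted p under 0.05, because the test does not use them. Filters on mean CPM alter only which genes are adjusted together. They could change no direction of these genes, and they changed no call. Scaling by totals other than the library sum raised all ratios by 0.063 to 0.13 on the log2 scale. NACA, near 0, then turned to 0.080 (TMM), 0.12 (median ratio), 0.060 (no mitochondrially encoded genes) and 0.054 (totals over genes without overlap). BTF3 likewise turned to 0.069, 0.11, 0.049 and 0.043. The number of genes higher by Nanopore became 2 under the first 3 of these, through PABPC1, and the median ratio became −0.051 under median-ratio scaling and −0.29 when pseudogenes were added to their genes.

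Division by length changed most. With union length the ratio turned to 1.71 for EEF1A1, 0.55 for EEF1D, 2.04 for NACA and 1.02 for BTF3, and the median to 1.02. With canonical length it turned to 1.00 for EEF1A1, 0.33 for EEF2 and 2.03 for NACA, and the median to 0.33. With mean length it turned to 0.72 for EEF1A1 and 0.054 for NACA, and the median became −0.059. Genes higher by Nanopore then numbered 6, 5 and 3. With union and with canonical length, 1 gene (NACA) was 4-fold higher by Nanopore, and with union length 2 were higher by Illumina. The Illumina share of the 10 genes was 0.913%, 1.20% and 1.70% with the 3 lengths and 2.29% with pseudogenes added. Without mitochondrially encoded genes it was 2.29%, and the Nanopore share was 2.15%. With mean length, 2 genes held the same rank in both libraries.

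By Illumina, EEF1B2 over EEF1G was 0.820, 0.802, 0.458 and 0.697 with canonical length, mean length, no length and pseudogenes added. EEF1D over EEF1G was 0.270, 0.516, 0.390 and 0.112 in that order. NACA over BTF3 was 0.271, 1.26 and 1.36 with the first 3, and EEF1A1 over EEF1A2 was 167456 without length. The cause of these shifts beyond the arithmetic of length and scaling was not tested. No paired analysis was possible because each platform has 1 library, and for the same reason no library could be left out.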
